A study of Mus musculus and Rattus norvegicus with 43 samples.

Results

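The 9 genes described here encode neurotrophins, the glial cell line-derived neurotrophic factor (GDNF) and their receptors. They are the ligands Bdnf, Ntf3 and Gdnf, the neurotrophin receptors Ngfr, Ntrk2 and Ntrk3, and the GDNF receptor components Gfra1, Gfra2 and Ret. They were taken by symbol from a mouse count table of 54532 genes, and each of the 9 symbols had 1 row. The study measured RNA by sequencing from the striatum, taken from a single hemisphere of C57BL/6 mice at 4 months of age, after an injection on postnatal day 0. All 21 mice compared had received an miRNA: 8 a control, 5 a C/N-TAF miRNA (here CN) and 8 an N-TAF miRNA (here N), both directed at Taf1, the gene of a large scaffold subunit of the transcription factor TFIID. The sources used here do not give the vector, the cells it entered or the sex of the mice. The question of the design is how striatal gene expression differs from the control after each miRNA.

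Neurotrophins are secreted proteins that bind receptor tyrosine kinases of the Trk family, each with its preferred ligand, and also bind the p75 receptor encoded by Ngfr. GDNF binds the membrane-anchored coreceptor GFRα1, its relative neurturin binds GFRα2, and both complexes signal through the kinase Ret. In the adult striatum most BDNF protein arrives in the axons of cortical neurons and little Bdnf mRNA is made locally, while Gdnf mRNA is made mainly by parvalbumin interneurons.

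Libraries held 24.9 to 35.6 M (mega) read counts. Levels are TMM-scaled CPM, which are read counts per M of library total after a scaling that sets the bulk of genes equal between libraries. The targeted gene Taf1 was at 98.6 ± 5.53 CPM in the 8 control, 90.7 ± 22.6 in the 5 CN and 97.5 ± 6.19 in the 8 N libraries (mean ± SD), with log2 fold changes against the control of -0.12 (SE 0.113, adjusted p = 0.703 by edgeR) and -0.02 (SE 0.0986, adjusted p = 0.987 by edgeR). Without CN library 2, which stands apart as described below, the CN level was 101 ± 3.73 CPM (SD, n = 4) and the log2 fold change 0.03 (SE 0.053, adjusted p = 0.938 by edgeR). No lower Taf1 was therefore shown in either group, and gene counts do not separate the forms of Taf1. All 8 marker genes of spiny projection neurons, the main striatal cell type, were detected in every library, with summed levels of 5437 to 9501 CPM. CN library 2 stood apart over all genes. Its deviation from the typical library depended on gene length more strongly than in any other library, with long genes low. Spearman rho was -0.714 over 10260 genes, against -0.496 to 0.54 in the other 20. Member values for CN are therefore given with and without CN library 2. Its Taf1 level of 50.6 CPM was the lowest of all, and the 4 other CN libraries held 95.7 to 105. Since Taf1 is the targeted gene, this level is no ground for leaving the library out. Fits without it drop the CN library of lowest Taf1, and what set that level was not tested.

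Levels of different genes were compared only per kb of exon. In control mice Ntrk2, which encodes the BDNF receptor TrkB, was the most abundant member at 31.1 ± 1.78 CPM per kb (SD, n = 8). Gfra1 followed at 9.81 ± 0.783 and Ntrk3, the receptor gene for neurotrophin-3, at 8.09 ± 0.418. Gfra2 stood at 2.38 ± 0.772, Ngfr at 1.6 ± 0.609 and Gdnf at 1.51 ± 0.147 CPM per kb. Ret stood at 0.527 ± 0.197, Bdnf at 0.219 ± 0.102 and Ntf3, which encodes neurotrophin-3, was the lowest at 0.108 ± 0.0893 CPM per kb. Neighbours in this order were separated without overlap only at 3 steps, from Ntrk2 to Gfra1, from Ntrk3 to Gfra2 and from Gdnf to Ret. Ngfr and Gdnf could not be ordered, since Ngfr was the higher in 4 of 8 control mice. Ntrk2 stood above Bdnf and Ntrk3 above Ntf3 in every control mouse, and Gfra1 stood 20.6 ± 6.56 times as high per kb as Ret, the kinase that it brings to its ligand (n = 8 control mice). Ntrk2 also has transcripts without the kinase, which gene counts do not separate. The gene spans of Bdnf, Ntrk2, Ntrk3 and Gfra1 overlap genes on the opposite strand, and those of Ntrk2 and Ntrk3 also genes on the same strand. Whether their exons overlap was not examined and the strand setting is not given. A part of such genes in these counts was therefore not determined.

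**Figure D1:**
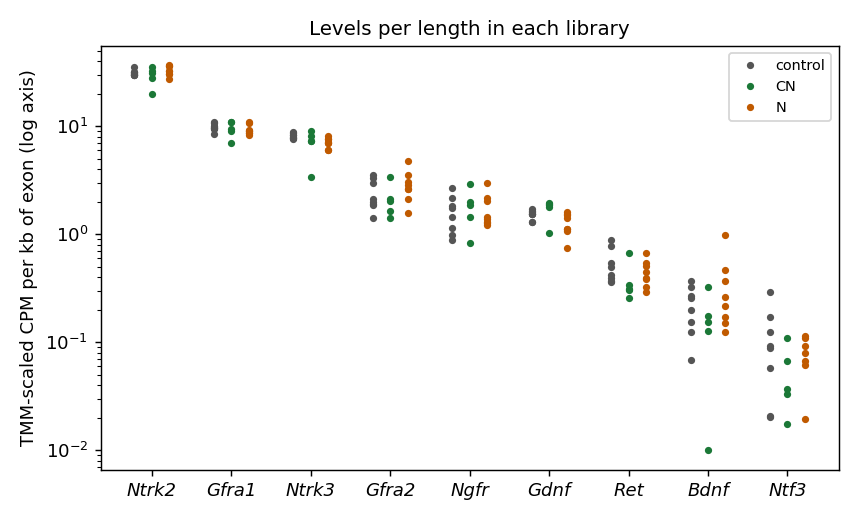
Level of each gene per kb of exon in each library, on a log axis, with genes ordered by their control mean. Each point is 1 library of the control (grey), CN (green) or N (orange) group, and the N library with no Ntf3 read has no point. Ntrk2 lies highest and Ntf3 lowest, and the lowest CN points of Ntrk2, Gfra1, Ntrk3 and Gdnf belong to CN library 2.

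Of the 9 members, 8 had enough reads for the test and Ntf3 did not. None of the 8 passed an adjusted p of 0.05 in edgeR's quasi-likelihood test over 19413 genes. That held for N against control (0 of 8 members and 0% of all genes), for CN against control (0 of 8 and 0%) and for CN against N (0 of 8 and 0%). At an unadjusted p under 0.05 the numbers of members were 0, 0 and 2, where 9.39%, 8.36% and 11.8% of all genes lay under that value. DESeq2 and limma-voom on the same libraries also called 0 members in each comparison, while DESeq2 called 74, 0 and 172 genes in all. Without CN library 2 edgeR called 1%, 0% and 0.356% of 19653 genes in the 3 comparisons and again 0 members, with 2, 1 and 4 members under an unadjusted p of 0.05, where 16.2%, 5.83% and 15.7% of all genes lay under it. The median log2 fold change of the 8 members was -0.00214 for N against control, -0.132 for CN against control and -0.0853 for CN against N, and that of all genes 0.00674, 0.000761 and 3.44e-05. Without CN library 2 the medians of the 8 members were -0.00241, -0.0012 and 0.0316, with 4 of 8 above 0 in each comparison. Those of all genes were then 0.00634, -0.00347 and -0.0109. The lean below 0 in the CN comparisons was thus not seen without that library. The 3 comparisons share libraries, so they are not independent of each other.

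**Figure D2:**
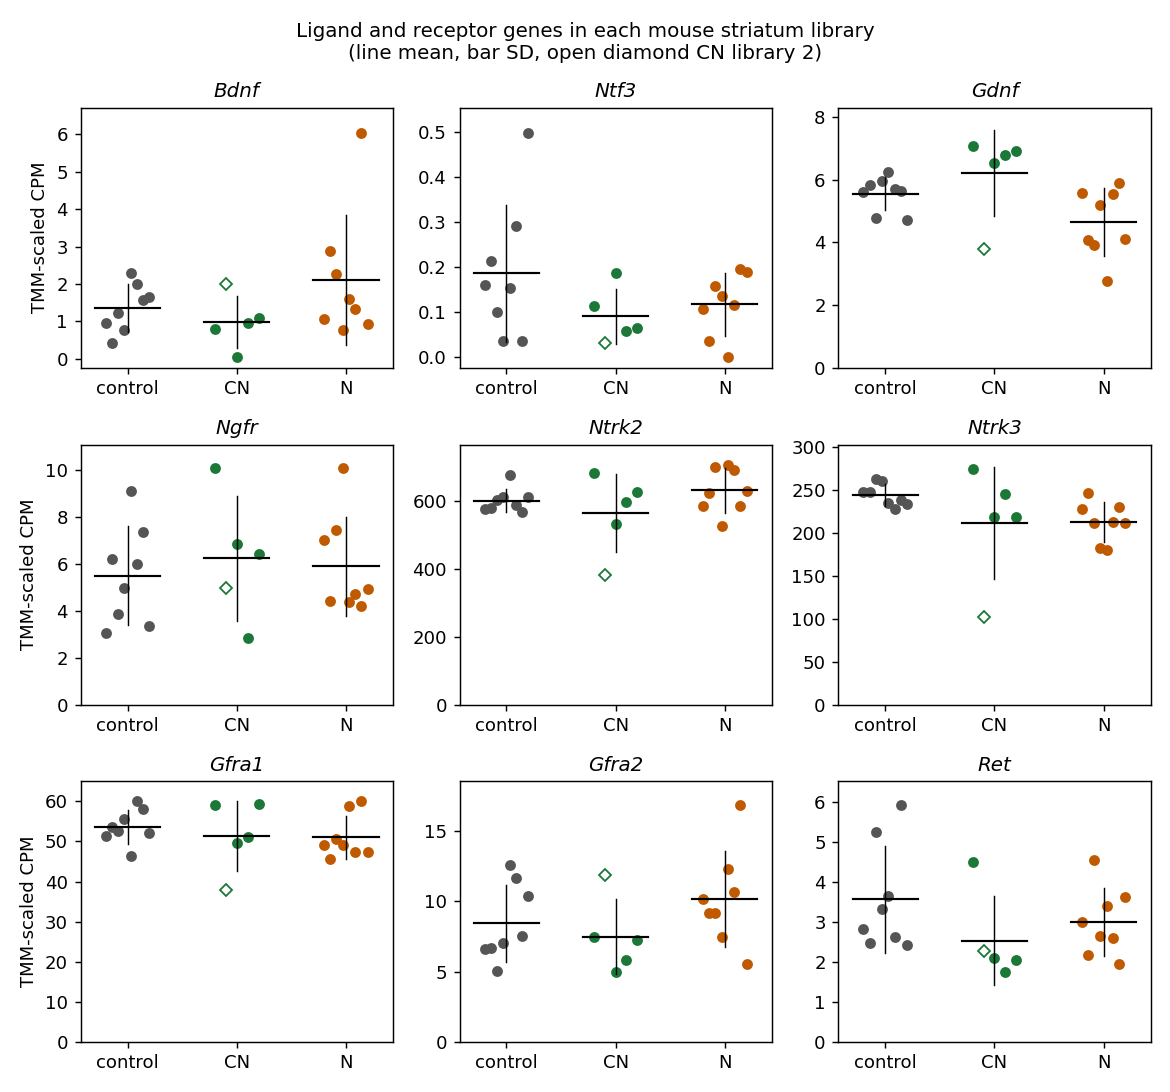
Level of each of the 9 genes in each library (TMM-scaled CPM, linear axes that include 0), by group. Points are libraries, the horizontal line is the group mean, the vertical bar is 1 SD to each side, and the open diamond is CN library 2. The 4 other CN libraries lie above every control for Gdnf, and CN library 2 is the lowest CN library for Gdnf, Ntrk2, Ntrk3 and Gfra1.

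Gdnf encodes the ligand of GFRα1 and Ret, a survival factor for the midbrain dopamine neurons that project to the striatum. Its RefSeq start sites give a pair of windows (mouse build GRCm38.p6, plus strand of chromosome 15), each from 250 bases before a start to 50 bases after it. They are shown because Gdnf is the member with the smallest p between groups and because the TATA box is the sequence that TFIID is known to engage. Capitals mark the letters TATAAA. The first window spans chr15:7809798-7810097 and the second chr15:7813477-7813776.

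Gdnf window 1: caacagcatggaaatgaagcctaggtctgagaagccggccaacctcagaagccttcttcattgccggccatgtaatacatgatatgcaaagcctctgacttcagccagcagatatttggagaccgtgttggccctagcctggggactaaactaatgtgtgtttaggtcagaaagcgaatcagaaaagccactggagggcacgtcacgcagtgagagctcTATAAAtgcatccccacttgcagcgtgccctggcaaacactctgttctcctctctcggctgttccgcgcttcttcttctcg

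Gdnf window 2: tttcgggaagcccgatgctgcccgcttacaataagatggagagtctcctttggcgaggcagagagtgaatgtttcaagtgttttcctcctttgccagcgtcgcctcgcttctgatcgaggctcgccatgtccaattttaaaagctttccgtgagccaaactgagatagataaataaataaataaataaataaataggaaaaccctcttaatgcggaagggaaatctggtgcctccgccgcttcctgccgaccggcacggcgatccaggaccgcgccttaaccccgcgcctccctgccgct

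In the first window TATAAA begins 31 bases before the start on the transcribed strand, and the second window holds none. Windows were at hand for 6 of the 9 members (Ngfr, Bdnf, Ntf3, Ntrk2, Gdnf and Gfra1), 14 in all with 7 of them for Bdnf. Searched on both strands, TATAAA was found in 1 of the 14, that of Gdnf, and in 13.6% of 32851 mouse windows of the same length. The full palindrome TGACGTCA of the cAMP response element was found in 0 of the 14 and in 1.79% of all windows. Variants and partial sites of this element were not searched, so the windows may hold such forms. These matches describe the letters only, and gene counts do not show which start site was used.

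Gdnf levels in the 5 CN libraries were 7.07, 3.79, 6.52, 6.8 and 6.92 CPM. In control mice they ranged from 4.73 over a median of 5.67 to 6.25 CPM, and in N mice from 2.76 over 4.66 to 5.91 CPM. CN library 2 held the 3.79, while the 4 other CN libraries lay above every control and every N library, and 4 of 8 N libraries lay below every control. The means were 5.56 ± 0.542 (control, n = 8), 6.22 ± 1.37 (CN, n = 5) and 4.64 ± 1.09 CPM (N, n = 8, all SD). The log2 fold change of CN against N was 0.42 (95% interval 0.0886 to 0.75, SE 0.16), with an unadjusted p of 0.0152 and an adjusted p = 0.308 by edgeR. Against the control it was 0.16 for CN (SE 0.16, adjusted p = 0.722 by edgeR) and -0.26 for N (SE 0.143, adjusted p = 0.601 by edgeR). None of these passed the adjusted threshold.

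The Gdnf level of CN without library 2 was 6.83 ± 0.234 CPM (SD, n = 4). The log2 fold change against the control was then 0.30 (SE 0.141, adjusted p = 0.835 by edgeR), with 4 of 4 CN libraries above every control. Such a separation upwards was seen in 0.219% of all genes. Against N it was 0.56 (95% interval 0.27 to 0.85, SE 0.141, adjusted p = 0.0688 by edgeR), with 4 of 4 above every N library, as in 0.885% of all genes. DESeq2 called Gdnf higher in CN than in N without that library (adjusted p = 0.00887), as did edgeR without CN library 2 and N library 7 together (log2 fold change 0.62, adjusted p = 0.0443), both chosen after seeing the data. For CN against N these settings called 599 of 19653 and 74 of 19580 genes. CN library 2 held the lowest Gdnf level of its group (3.79 CPM) and N library 7 the highest of its own (5.91 CPM). Leaving out either library therefore widens this difference by construction, and these calls are no independent support for it. The two-sided exact permutation test on log2 CPM of this gene alone gave 0.0637 for CN against N with all libraries, and 0.00404, the smallest it can give, without CN library 2. This p is not adjusted over the 24 member tests and follows the removal of a library.

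Several measured properties moved with Gdnf, and their part in its differences was not tested. In whole striatum fewer cells of a type and less RNA per cell cannot be told apart, for Gdnf as for every gene below. Over the 20 libraries without CN library 2, after subtraction of group means, Gdnf had a Pearson r of 0.733 with the score of 4 oligodendrocyte markers (their mean log2 CPM relative to the control mean), and of 0.439 without the 2 libraries farthest out. Those markers summed to 6162 to 8278 CPM in control, 6512 to 9677 in CN and 4374 to 8860 in N, and none was at 0. With the score of 7 interneuron markers r was -0.239. That score mixes Pvalb, a marker of the known source of striatal Gdnf, with markers of other interneurons. No r with Pvalb alone is given. Pvalb itself lay at 10.1 to 45.2 CPM over all libraries, and the 7 summed to 269 to 326, 249 to 570 and 289 to 329 CPM. The libraries also fall into 2 sets by reads of Ambn, an enamel matrix gene that marks no striatal cell, at 2.03 CPM or more or at 0.0762 or less. The first set holds 5 control, 4 CN and 3 N libraries and the second 3, 1 and 5. Within the sets the log2 fold change of Gdnf for N against control was -0.04 and -0.46, and for CN against N 0.24 and 0.60.

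Bdnf encodes the ligand of TrkB. Its CN libraries held 0.794, 2, 0.0618, 0.955 and 1.08 CPM, control libraries 0.423 to 2.29 with a median of 1.4, and N libraries 0.773 to 6.04 with a median of 1.47. All 3 groups overlapped. These values rest on few reads, from 2 in CN library 3 to 186 in N library 7, so the spread was wide and the biological coefficient of variation was 60.8%. The log2 fold change was 0.64 for N against control (SE 0.442, adjusted p = 0.728 by edgeR) and -0.47 for CN against control (SE 0.527, adjusted p = 0.752 by edgeR). For CN against N, 1 of 5 CN libraries lay below every N library. The log2 fold change was -1.11 (95% interval -2.20 to -0.0232, SE 0.526), with an unadjusted p of 0.0457 and an adjusted p = 0.411 by edgeR. Single libraries set these sizes. Without N library 7 they were 0.20 for N against control and -0.66 for CN against N, and without CN library 2 the latter was -1.55. CN against control was -0.90 without CN library 2 and -0.16 without CN library 3. Within the Ambn sets N against control was 1.42 and -0.16, of opposite sign. The first of these sets has 3 N libraries, and N library 7 with its 6.04 CPM is among them.

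Ntf3 was at the limit of detection, with 0 to 16 reads per library. Its means were 0.185 ± 0.153 CPM in control, 0.0897 ± 0.0615 in CN and 0.116 ± 0.0695 in N (SD, n = 8, 5 and 8). The groups overlapped throughout. In N library 5 no read was counted, which allows a level of up to 0.118 counts per M, from 3 counts of the library total and for counting error only. No difference in Ntf3 was detectable at this depth.

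Ntrk2 was at 601 ± 34.2 CPM in control, 564 ± 116 in CN and 630 ± 65 in N. Its CN libraries held 683, 381, 533, 595 and 627 CPM, with library 2 below every other library, while controls spanned 567 to 675 (median 594) and N libraries 526 to 706 (median 625). The log2 fold change was 0.07 for N against control (95% interval -0.11 to 0.25, adjusted p = 0.898 by edgeR). For CN against control it was -0.09 (95% interval -0.30 to 0.12, adjusted p = 0.747 by edgeR) with all libraries and 0.03 (95% interval -0.12 to 0.17) without library 2. In neither fit did a group pass the threshold against the control. Across libraries Ntrk2 had r = 0.698 with the score of 2 oligodendrocyte precursor markers, -0.695 with the spiny projection neuron score and 0.618 with the astrocyte score (20 libraries within groups, 0.637, -0.571 and 0.48 without the 2 farthest out). With choroid plexus and neuroblast scores r was 0.604 and 0.594 (0.47 and 0.45 without the 2 farthest out). Spiny neuron markers summed to 6580 to 7381 CPM in control and 5437 to 7170 in N, and 5 astrocyte markers to 890 to 1060 and 964 to 1294. The part of these cell types in the Ntrk2 values was not tested.

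Ntrk3 had the smallest relative spread among control libraries of any member (coefficient of variation 5.17%), at 228 to 263 CPM with a median of 243. N libraries ranged from 180 to 246 with a median of 213, and 6 of 8 lay below every control. CN libraries held 274, 102, 218, 245 and 219 CPM, so that CN library 2 was again the lowest of all and CN library 1 the highest. The means were 244 ± 12.6 (control), 211 ± 65.5 (CN) and 213 ± 23 CPM (N). The log2 fold change of N against control was -0.20 (95% interval -0.45 to 0.0579, SE 0.124, adjusted p = 0.682 by edgeR). The fit without CN library 2, in which the median biological coefficient of variation over all genes was 12.2% in place of 16.4%, gave the same fold change of -0.20 with an SE of 0.0593 and an adjusted p = 0.0927 by edgeR. DESeq2 on the same 20 libraries called Ntrk3 lower in N (adjusted p = 0.0403). This setting was added after seeing the data, and it called 702 of 19653 genes for N against control. The exact two-sided permutation test on Ntrk3 alone, which uses only control and N libraries, gave 0.00357 for N against control, not adjusted over the 24 member tests. For CN against control the fold change was -0.21 with all libraries (adjusted p = 0.625 by edgeR) and -0.0279 without library 2. CN against N was -0.01 with all and 0.17 (SE 0.0722, adjusted p = 0.243 by edgeR) without it. In the Ambn sets N against control was -0.06 and -0.29. The score of the 7 interneuron markers was -0.127 to 0.141 in control and 0.0534 to 0.365 in N, and its r with Ntrk3 was -0.529 (20 libraries within groups, -0.568 without the 2 farthest out). With the astrocyte score, -0.161 to 0.136 in control and -0.0112 to 0.42 in N, r was -0.278 (-0.591 without the 2 farthest out). The 7 interneuron markers did not move together. Calb2 was at 3.34 to 6.2 CPM in control and 5.47 to 24.3 in N, while Nos1 was at 77.5 to 99.3 and 72.1 to 88.5. That score is therefore not the amount of a single cell type. The part of either marker list in the Ntrk3 values was not tested.

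Both Trk genes have long exon sets, 19292 bases for Ntrk2 and 30170 for Ntrk3, against 1714 to 6763 bases for the other 7 members. In CN library 2, where long genes were low, they stood at 381 and 102 CPM. The part of gene length in these values was not tested.

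Ngfr encodes p75, a receptor without a kinase that binds all neurotrophins. Its level was 5.5 ± 2.1 CPM in control, 6.24 ± 2.67 in CN and 5.9 ± 2.11 in N. CN libraries held 10.1, 4.99, 6.86, 2.84 and 6.41 CPM, controls 3.06 to 9.12 (median 5.49) and N libraries 4.19 to 10.1 (median 4.83). The 3 groups overlapped over most of their ranges. The log2 fold changes were 0.10 for N (95% interval -0.42 to 0.62) and 0.17 for CN (95% interval -0.41 to 0.76) against control, with adjusted p-values of 0.957 and 0.833 by edgeR. For CN it was 0.24 without CN library 2 and -0.0615 without CN library 1. Differences within these wide intervals were not resolved.

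Ret, the kinase of the GDNF receptor, was at 3.57 ± 1.34 CPM in control, 2.54 ± 1.12 in CN and 3 ± 0.849 in N. The CN libraries held 4.5, 2.27, 2.1, 1.74 and 2.06 CPM, and 4 of 5 lay below every control, since controls spanned 2.43 to 5.93 with a median of 3.07. N libraries spanned 1.95 to 4.56 with a median of 2.83 and overlapped both. For CN against control the log2 fold change was -0.50 (95% interval -1.04 to 0.0382, SE 0.261), with an unadjusted p of 0.0671 and an adjusted p = 0.602 by edgeR. Without CN library 1 it was -0.80, and without CN library 2 -0.47. N against control was -0.25 (SE 0.225, adjusted p = 0.827 by edgeR). In the Ambn sets CN against control was -0.25 and -1.03, where the second value compares 1 CN library with 3 controls.

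Gfra1, the coreceptor gene of GDNF, was at 53.7 ± 4.29 CPM in control, 51.5 ± 8.75 in CN and 51 ± 5.42 in N. CN libraries held 59.2, 38, 49.7, 51.1 and 59.3 CPM, with library 2 the lowest of all. Controls spanned 46.3 to 60.1 and N libraries 45.6 to 60.1, and those groups overlapped almost fully. Log2 fold changes were -0.07 for N (95% interval -0.24 to 0.0945) and -0.06 for CN (95% interval -0.25 to 0.13) against control, with adjusted p-values of 0.882 and 0.813 by edgeR. The CN value turned to 0.0328 (95% interval -0.12 to 0.19) without CN library 2.

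Gfra2, the coreceptor gene of neurturin, was at 8.43 ± 2.73 CPM in control, 7.47 ± 2.67 in CN and 10.2 ± 3.41 in N. CN libraries held 7.45, 11.9, 5, 5.79 and 7.23 CPM, controls 5.01 to 12.6 (median 7.27) and N libraries 5.54 to 16.9 (median 9.66), and all groups overlapped. The log2 fold changes were 0.27 for N against control (SE 0.215, adjusted p = 0.785 by edgeR), -0.17 for CN against control (SE 0.247, adjusted p = 0.805 by edgeR) and -0.45 for CN against N (SE 0.248, adjusted p = 0.483 by edgeR). Leaving out CN library 2, the highest of its group, gave -0.68 for CN against N (SE 0.266, adjusted p = 0.22 by edgeR) and -0.40 for CN against control. The latter was -0.0538 without CN library 3. Without N library 7, N against control was 0.13 and CN against N -0.30.

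Gfra2 varied with the markers of cortical and hippocampal excitatory neurons, which are not cells of the striatum. Over the 20 libraries and within groups its Pearson r with the score of 5 such markers was 0.906 (Spearman rho 0.86, r 0.848 without the 2 libraries farthest out), the highest of the 104 pairs of a member and a marker list. For Bdnf, which cortical neurons express, r was 0.619 (rho 0.692, r 0.733 without the 2 farthest out). Gfra2 and Bdnf had r = 0.65 with each other, the highest of the 28 pairs of members. The points of these correlations share their library, depth and dissection. Slc17a7, the vesicular glutamate transporter of these neurons, ranged from 18.5 CPM in CN library 1 to 234 in N library 7, which also had the highest Gfra2 and Bdnf. The 5 markers summed to 26.5 to 176 CPM in control, 27.7 to 206 in CN and 37.7 to 323 in N, with none at 0 in any library. Their part in the group differences of Gfra2 and Bdnf was not tested.

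**Figure D3:**
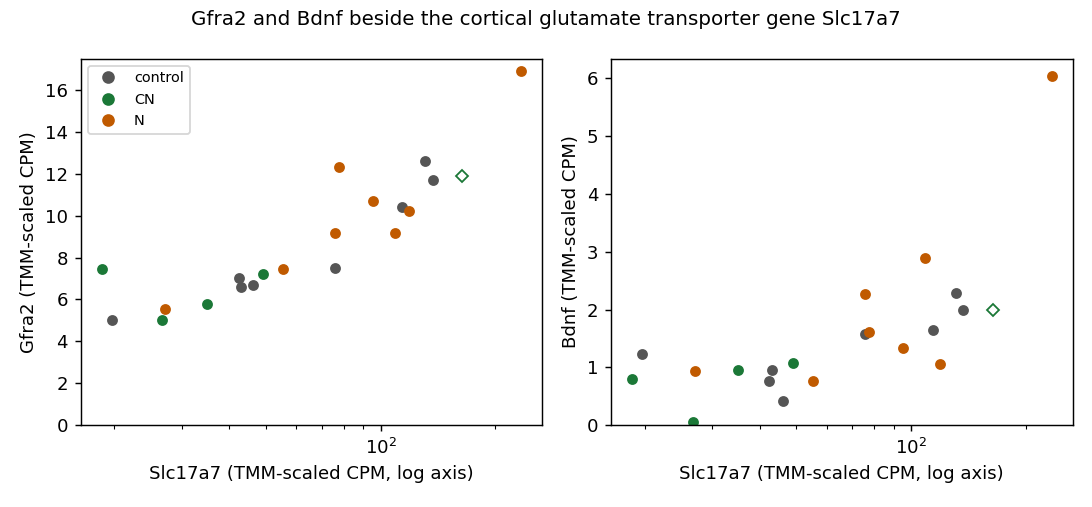
Gfra2 (left) and Bdnf (right) against Slc17a7 in the 21 libraries, in TMM-scaled CPM with a log axis for Slc17a7. Each point is 1 library, coloured by group, and the open diamond is CN library 2. Gfra2 goes up with Slc17a7 across all groups, and the rightmost point, N library 7 at 234 CPM of Slc17a7, is the highest for both genes.

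**Figure D4:**
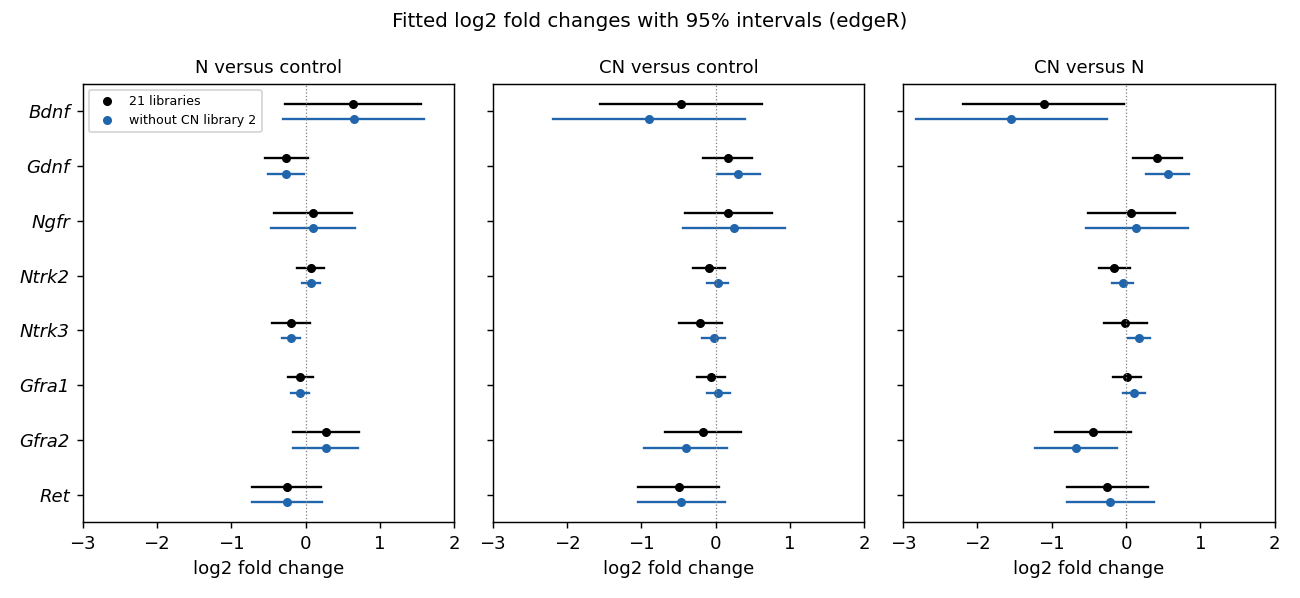
Log2 fold changes with 95% intervals of the 8 tested genes by edgeR, for N against control, CN against control and CN against N, with all 21 libraries (black) and without CN library 2 (blue). With 21 libraries only Gdnf and Bdnf, in CN against N, have intervals that leave out 0, and their adjusted p-values were 0.308 and 0.411.

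Apart from Gfra2 with Bdnf, members varied largely apart from each other within groups. Ligand and receptor pairs showed r = 0.4 for Bdnf with Ntrk2, -0.104 for Gdnf with Gfra1 and -0.258 for Gdnf with Ret (20 libraries). Ngfr with Ret had 0.453. Including CN library 2 raised r between Ntrk2 and Ntrk3 from 0.132 to 0.717, so that value rests on this library.

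The genes whose variation was most like that of a member were sought among 13519 genes with a mean of at least 1 CPM, by Pearson r over the same 20 libraries within groups. Dusp7 (r = 0.885), Tppp (0.834) and Sc5d (0.833) were nearest to Gdnf. Ipcef1 (0.956), Efhd2 (0.953) and Bmp3 (0.904) were nearest to Gfra2, and Ptprj (0.852), Lemd3 (0.822) and Dlgap1 (0.765) to Bdnf. For Ntrk3 they were Dgkh (0.89), Scn8a (0.864) and Dgki (0.848), and for Ntrk2 Itpkb (0.878), Kcnd3 (0.865) and Tgoln1 (0.85). Ret was nearest to Cyp4f17 (0.872), Ngfr to Alpk1 (0.837) and Gfra1 to Mief1 (0.798). With CN library 2 included the r of Bdnf with Ptprj was 0.189 and with Lemd3 0.18, so these likenesses are not shared by that library. It was also lower for Ngfr with Alpk1 (0.608), Ntrk2 with Itpkb (0.73) and Gfra1 with Mief1 (0.714). For Ntrk3 with Dgkh (0.974) and Ntrk2 with Kcnd3 (0.942) it was higher. Each companion was picked as a highest r among 13519 genes over 20 libraries, which favours high values, and none was tested.

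Other genes of the same pathways were counted in 6 lists of 85 genes, of which 82 were tested. With all libraries 0 of 82 were called in each of the 3 comparisons by edgeR, where 0% of all genes were called. At an unadjusted p under 0.05 there were 15, 4 and 14 of 82 for N against control, CN against control and CN against N (18.3%, 4.88% and 17.1%, beside 9.39%, 8.36% and 11.8% of all genes). By list the 15 were 7 of 18 ERK feedback and target genes, 4 of 9 Bdnf processing genes and 2 of 7 other neurotrophin genes. Of 32 adaptors of Trk and Ret 1 lay under it, of 10 p75 partners 1, and of 6 other GDNF family genes 0. In that order the 4 were 0, 0, 0, 2, 2 and 0, and the 14 were 6, 2, 2, 3, 1 and 0. Without CN library 2, edgeR called 2 of 82 lower and 0 higher in N than in control, where 0.667% of all genes were called lower and 0.336% higher, and 0 of 82 in the other comparisons.

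The other neurotrophin ligands and receptors comprised 8 genes with 7 tested. Sorcs3, a sortilin-family receptor, was at 35.6 ± 3.81 CPM in control, 30.8 ± 4.91 in CN and 43.5 ± 6.94 in N, with a log2 fold change of -0.50 for CN against N (SE 0.113, adjusted p = 0.127 by edgeR). Ntf5 stayed below the count filter.

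Of the 8 other GDNF family genes 6 were tested and none was called in any comparison, with or without CN library 2. Nrtn, which encodes neurturin, was at 4.28 ± 0.754 CPM in control, 4.91 ± 2.51 in CN and 4.15 ± 0.624 in N, and the CN level without library 2 was 3.82 ± 0.733, below the control mean in place of above it. Artn, the artemin gene, was at 0.508 ± 0.167, 0.463 ± 0.163 and 0.677 ± 0.302 CPM. Gfra3 and Gfral did not pass the count filter.

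Among 32 adaptors and kinases that relay Trk and Ret signals none was called. The smallest p for CN against control belonged to Mapk3, the ERK1 gene, at 134 ± 5.54 CPM in control and 160 ± 38.3 in CN (log2 fold change 0.26, SE 0.0913, adjusted p = 0.59 by edgeR). Its CN level was 144 ± 8.5 CPM without library 2 (n = 4). Of 10 partners of p75 signalling, Arhgdia was at 224 ± 9.01 CPM in control and 195 ± 18.3 in N, a log2 fold change of -0.20 called only without CN library 2 (SE 0.0496, adjusted p = 0.0496 by edgeR, against 0.454 with all libraries). Of 9 genes of Bdnf processing and storage none was called, and the smallest p for CN against N belonged to Cadps2, a secretion factor, at 10.1 ± 0.997 CPM in CN and 17.1 ± 5.49 in N (-0.76, SE 0.203, adjusted p = 0.159 by edgeR).

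The 18 feedback and target genes of the ERK cascade, which Trk and Ret activate among many other inputs, had a median log2 fold change of -0.15 in N against control, with 4 of 18 above 0, and of 0.12 in CN against N, with 13 of 18 above 0. None was called in any comparison. Arc, an activity-induced synaptic gene, was at 77.2 to 336 CPM in control (median 178) and 45.2 to 172 in N (median 102), a log2 fold change of -0.86 (SE 0.303, adjusted p = 0.356 by edgeR). Dusp6, which encodes a phosphatase of ERK, was at 50.1 ± 9.68 CPM in CN and 32.6 ± 10 in N (0.62, SE 0.198, adjusted p = 0.226 by edgeR). Many members of this list respond to neuronal activity as a whole, so their values do not report on Trk or Ret signalling alone.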

How the data were processed

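Whole striatum RNA of 21 mice of known injection was compared. The authors deposited raw read counts per Ensembl gene. The submitters' processing notes list STAR, featureCounts and edgeR without versions, and a human build (GRCh38) although the rows carry mouse identifiers. The sources used here give neither the strand setting nor the annotation release. Groups came from the injection label. Replicate numbers follow record order and pair nothing, and 1 mouse with no stated injection entered no comparison. The 21 rat libraries were not used, since their identifiers carry no gene names here.

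Control, CN and N libraries were fitted together by edgeR's quasi-likelihood method (R 4.3.3, edgeR 4.0.16, limma 3.58.1), after the filterByExpr filter and TMM scaling and with robust dispersion, and p-values were adjusted by Benjamini-Hochberg over all 19413 genes tested. A call is an adjusted p under 0.05. The main p-values set each group difference against the spread between libraries within groups. That spread was estimated over all 3 groups together, with information shared across genes. Alternatives were DESeq2 1.42.0 (also its size factors alone), limma-voom, no low-count filter, a prior count of 2, only the groups compared, libraries left out, and Ambn sets. Exact permutation tests used mean log2 CPM (prior count 2) per group. Library totals of 24.9 to 35.6 M limit precision for genes of few reads, such as Bdnf and Ntf3.

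Levels per kb use union exon lengths of GENCODE vM21, matched by gene identifier. Promoter windows are RefSeq sequences on GRCm38.p6, matched by symbol. Marker scores are the mean log2 CPM of a list after subtraction of the control mean. All 9 members are named, with up to 2 genes of smallest p per pathway list and comparison and up to 3 companions per member. The members and lists were chosen with earlier results of these data known. A few genes that the rule takes from the lists are not reported here.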

Additional observations from a re-analysis of the deposited data

Results flagged for a closer look

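In 4 of the 27 combinations of a member and a group, a single library lay far from the rest of its group, and chance alone marks about 1 in 20. Bdnf in N library 7 was at 6.04 CPM and the next N library at 2.89, and this library also held the most Slc17a7 of all (234 CPM). Ntrk2 in control library 5 was at 675 CPM and the next control at 611. Gdnf in CN library 2 was at 3.79 CPM while the nearest other CN library was at 6.52. Long genes were low in that library, and the exon set of Gdnf is 3674 bases. Ret in CN library 1 was at 4.5 CPM while the nearest other CN library was at 2.27. Long genes were highest in that library (Spearman rho 0.54), and the exon set of Ret is 6763 bases. What set these values apart was not tested.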

How the results depend on the processing

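Of the 24 member fold changes, 13 kept their sign in every setting run and 11 changed it in some. In the 16 settings other than leaving out 1 library, 354 of 384 values kept direction and side of the threshold, 3 passed it and 27 changed sign. The 3 that passed were Ntrk3 for N against control (adjusted p = 0.0403) and Gdnf for CN against N (0.00887), both by DESeq2 without CN library 2, and Gdnf by edgeR without CN library 2 and N library 7 (0.0443). For Gdnf these settings leave out the lowest CN library, and the last also the highest N library. Within a comparison, no setting called more than 1 member. The cause of the sign changes was not tested.

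Genes called were 8 for CN against N with no low-count filter, 74 (N against control) and 172 (CN against N) by DESeq2, and 209 for N against control with only those groups fitted. Without CN libraries 1 and 2 they were 300 and 4. Without CN library 2, with settings added after seeing the data, N against control and CN against N gave 702 and 599 by DESeq2, 194 and 70 by limma-voom, 16 and 8 with the Ambn class as covariate, and 94 and 74 without N library 7. Leaving out 1 library in turn gave 0 to 197 for N against control, 0 to 1 for CN against control and 0 to 70 for CN against N, with the highest values without CN library 2, CN library 1 and CN library 2, and 0 members in each case.

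Leaving out 1 library in turn, 13 of 504 member values changed sign. Ranges that cross 0 were -0.0567 to 0.24 for Ngfr (N against control), -0.0615 to 0.36 (CN against control) and -0.16 to 0.26 (CN against N), -0.17 to 0.0255 for Ntrk2 and -0.12 to 0.0328 for Gfra1 (both CN against control), and -0.12 to 0.17 for Ntrk3 and -0.0442 to 0.11 for Gfra1 (both CN against N). Elsewhere sign changed as follows. By limma-voom CN against N was -0.012 for Ngfr and -0.0018 for Gfra1. Without CN libraries 1 and 2 Ngfr was -0.0413 against control and -0.14 against N, and Ntrk3 0.0943 against N. Without N libraries 5 and 6 Ngfr was -0.0312 (CN against N). With the Ambn class as covariate Gfra1 was -0.000489 (CN against N). In libraries with Ambn at 0.5 CPM or more Gfra2 was 0.00214 (CN against control) and Ret 0.14 (CN against N). Below 0.5 CPM N against control was -0.18 for Ngfr, -0.16 for Bdnf and -0.00239 for Gfra2, Ngfr was -0.0573 (CN against control), and CN against N was 0.13 for Ntrk3 and -0.0232 for Gfra1. Without CN library 2 and by DESeq2, by limma-voom, with the Ambn covariate and without N library 7, Ntrk2 for CN against control was 0.024, 0.0212, 0.032 and 0.0271, Gfra1 was 0.0313, 0.0317, 0.026 and 0.0344, and Ntrk3 for CN against N was 0.17, 0.17, 0.13 and 0.19. No paired analysis was possible because the labels give no replicate numbers.

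Depth limits Ntf3 (0 to 16 reads) and Bdnf (2 to 186 reads) most, and 5 CN libraries, 1 of them apart from the rest, limit every CN comparison.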

Other observations

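The mouse whose label names no injection was compared with the 21 others by values only. Its Ngfr level of 2.14 CPM lay below all of them, the lowest of which held 2.84. Its Ret level of 1.86 CPM lay below every control (2.43 or more) and inside the range of all 21, where the lowest was 1.74. The other 7 members lay within the control range, with Gdnf at 5.51, Bdnf at 1.86, Ntf3 at 0.119, Ntrk2 at 650, Ntrk3 at 259, Gfra1 at 50.9 and Gfra2 at 11 CPM. Its Slc17a7 level of 157 CPM was above every control, where the highest held 137.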
